A study of Mus musculus with 51 samples.

Results

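The nuclear-encoded subunits of the respiratory chain and of the ATP synthase were followed through 51 libraries of mouse gastrocnemius muscle in which the clock gene Bmal1, the HIF regulator Vhl, or both, had been deleted. Members were chosen by symbol alone: genes listed in both deposited count tables whose names begin with Ndufa, Ndufb, Ndufc, Ndufs, Ndufv, Sdha to Sdhd, Uqcr, Cyc1, Cox5 to Cox8 or Atp5, leaving out assembly factors, symbols ending in -ps and Ndufa4l2. The rule found 83 genes among the 48294 symbols that the tables share. Complex I held 36 of them, complex II 4, complex III 9, complex IV 17 and complex V 17. Ndufa4, named after complex I, was counted with complex IV, where the protein is now placed. Atp5s and Atp5sl fall under the name rule although they are not core subunits of the ATP synthase. Cox7b2 and Cox8c had too few counts to be tested in either batch and Cox6b2 too few in batch 2, so that 81 members were tested in batch 1 and 80 in batch 2.

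Complexes I to IV pass electrons from NADH and succinate to oxygen and, complex II excepted, pump protons across the inner mitochondrial membrane; the ATP synthase, complex V, uses that gradient to make ATP. Most subunits are encoded in the nucleus, and the mitochondrial genome encodes the remainder, so each of complexes I, III, IV and V needs both genomes, while complex II is nuclear only. In muscle, BMAL1 pairs with CLOCK to form the activating factor of the circadian clock, which binds E-boxes. VHL marks hypoxia-inducible factors (HIF) for breakdown, so that HIF proteins persist without it; HIF is known for raising glycolysis and lowering mitochondrial respiration.

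All libraries were 3′ tag libraries of snap-frozen whole gastrocnemius, 1 per animal, and the animals carried floxed alleles or knockouts as follows. In batch 1, animals on high-fat diet were 7 controls (Bmal1fx/fx) and 5 Bmal1KO, and animals on regular chow were 4 controls and 3 Bmal1KO. Batch 2, entirely on high-fat diet, held 8 Bmal1fx/fx controls and 4 Bmal1KO, 6 Vhlfx/fx controls and 4 VhlKO, and 6 Bmal1fx/fx;Vhlfx/fx controls and 4 Bmal1KO;VhlKO animals, called the double knockout here. The series' design text describes the BMAL1 deletion as specific to skeletal muscle. The Cre driver, deleted exons, age, sex and time of harvest were not stated in any source read; because BMAL1 belongs to the clock, differences are those at the hour of harvest.

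Libraries held between 6.95 M and 14.7 M counts, and log2 CPM of libraries of a group correlated at 0.943 to 0.984. Levels are in CPM, a gene's counts scaled to a fixed library size, with TMM scaling within each batch separately, so they are compared within a batch only. Fast fibre transcripts (8 genes such as Myh4) summed to 62024 CPM or more in every library, as for gastrocnemius. Arntl, the gene of BMAL1, was lower by 1.02 ± 0.22 (log2 ± SE; adjusted p = 0.0025) in the batch 1 knockouts on high-fat diet, while the difference was -0.91 ± 0.28 on chow (adjusted p = 0.082) and -0.24 ± 0.13 in batch 2 (adjusted p = 0.239), where the libraries of both groups overlapped. Vhl fell by 0.85 ± 0.30 in VhlKO and by 0.78 ± 0.26 in the double knockout (adjusted p = 0.022 and 0.018). A 3′ tag that lies outside the deleted exons does not check a label, and whether these tags do is not known. The falls that passed go in the direction of the labels, and the differences that did not pass do not contradict them. These values alone do not settle the genotypes. In whole muscle, fewer fibres of a type and less RNA per fibre cannot be told apart.

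Without BMAL1 on high-fat diet, members of complexes I, III, IV and V were higher in both batches, and those of complex II in batch 2 and in the joint fit. The summed level of the members was 22946 ± 1766 CPM in the 7 batch 1 controls (mean ± SD) and 28106 ± 2506 CPM in the 5 knockouts, and 31737 ± 1993 CPM against 37714 ± 1631 CPM in the 8 controls and 4 knockouts of batch 2. In batch 2 the sums of the groups did not overlap (28970.0 to 35436 CPM against 35763 to 39224 CPM), and in batch 1 the lowest knockout (25019 CPM) lay just under the highest control (25658 CPM). Of the 81 members tested in batch 1, 37 were higher and 0 lower at an adjusted p under 0.05 (edgeR quasi-likelihood test, Benjamini-Hochberg adjustment over all genes), against 3.82% of all genes higher and 5.18% lower. Without Bmal1KO 1, whose members summed highest of the batch 1 knockouts, 18 members passed in batch 1. With all libraries, scaled by library totals alone, 67 passed, all higher. All genes then shifted up too, to a median of 0.157, with 1227 of 12762 higher and 371 lower. In batch 2, 48 of 80 were higher and 0 lower, against 6.94% and 6.96% of all genes. The median member differed by 0.26 (log2) in batch 1 and 0.22 in batch 2, where the median of all genes was 0.00 and -0.01. The same 32 members passed in both batches, and the effects of the 80 members, measured in separate animals, ranked alike (Spearman's rho 0.859, Pearson's r 0.867 across genes, which are not independent; rho over all 12454 genes tested in both was 0.484). The libraries of knockouts lay above all controls for 13 members in batch 1 (2.51% of all genes did so) and for 36 in batch 2 (4.9%), and below all controls for 0 in either (3.57% and 5.06%). Fitted over both batches with a batch term, 64 of 80 members were higher and 0 lower, against 11% and 11.3% of all genes, with a median of 0.25. The Bmal1 effect of batch 2 less that of batch 1 passed for 0 of 80 members with edgeR (0.00796% of all genes were higher and 0% lower), for 0 with DESeq2 and for 0 at an unadjusted p under 0.05.

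**Figure D1:**
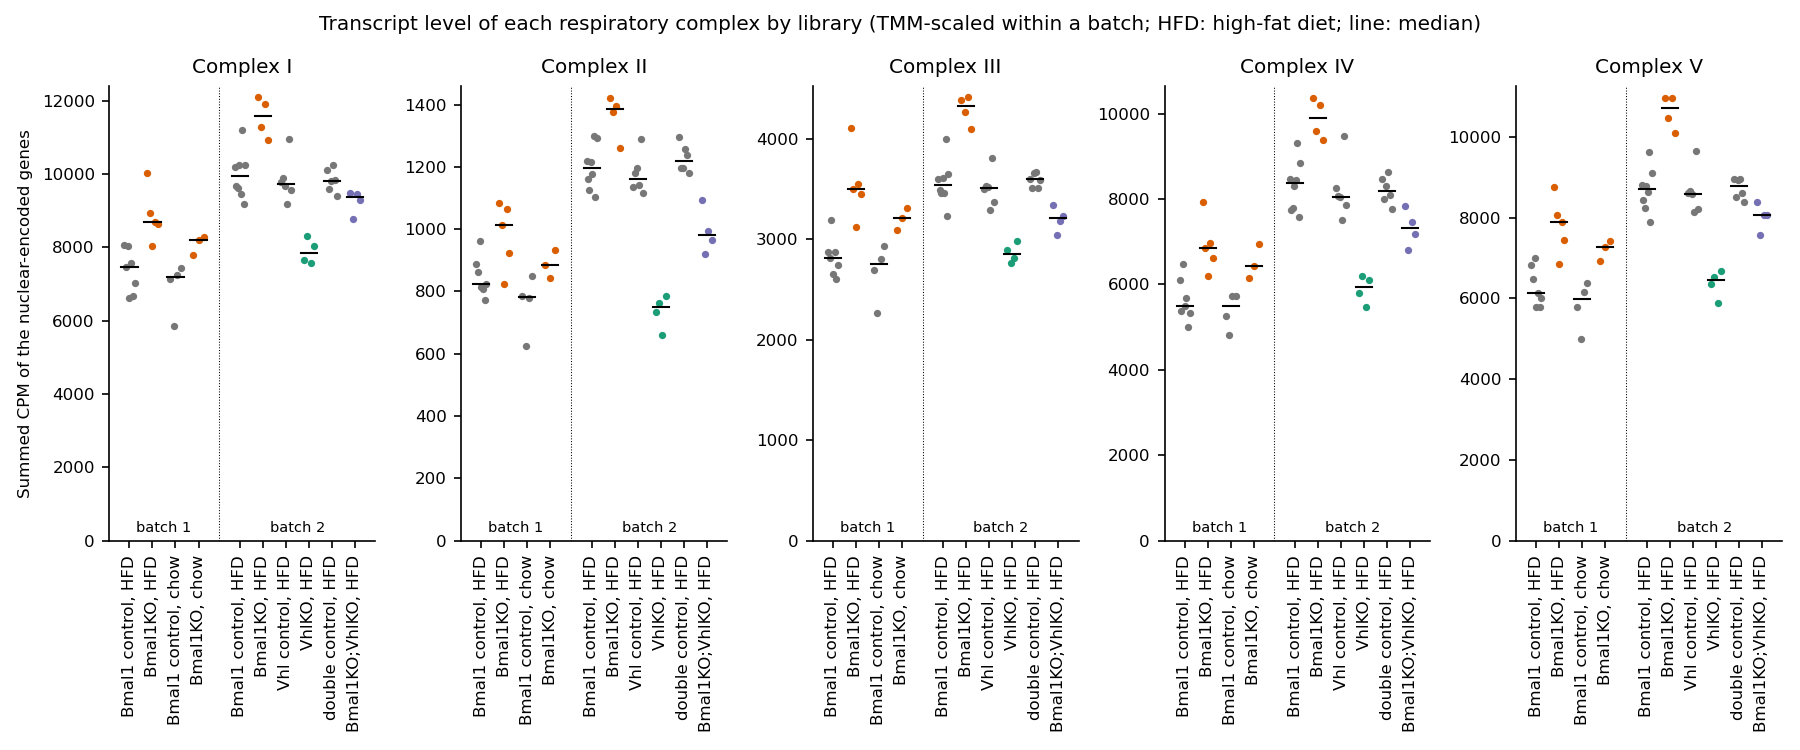
Summed CPM of the members of each complex in every library (points, 1 animal each; y axis in CPM from 0, TMM-scaled within a batch), with a panel for each complex, groups along the x axis and a line at each group's median; grey marks controls. In batch 2 the Bmal1KO libraries lie high in each complex and the VhlKO libraries lie lowest, with the double knockout between.

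Complex I, the NADH dehydrogenase and the largest of the complexes, had 13 of 36 members higher in batch 1 and 20 of 36 in batch 2. Its sum moved from 7351 ± 599 to 8863 ± 734 CPM in batch 1 and from 9975 ± 633 to 11550.0 ± 543 CPM in batch 2. Ndufs4, an accessory subunit whose mutation causes Leigh syndrome, was between 95.8 and 122 CPM (median 105) in batch 1 controls and at 172, 130, 130, 139 and 137 CPM in the knockouts. In batch 2 Ndufs4 was between 133 and 149 CPM (median 146) in controls and at 196, 180, 183 and 176 CPM in knockouts. Every knockout lay above every control in both batches, and Ndufs4 rose by 0.39 ± 0.09 and 0.35 ± 0.06 (adjusted p = 0.0037 and 4.6e-05). Ndufb9, an accessory subunit of the membrane arm, ran from 441 to 569 CPM (median 520) in batch 1 controls and stood at 743, 670, 586, 643 and 665 CPM in knockouts. These groups did not overlap either, nor did those of batch 2 (601 to 744 CPM, median 664, against 842, 820, 834 and 776 CPM), and Ndufb9 rose by 0.41 ± 0.09 and 0.30 ± 0.05. Of the core subunits that carry electrons, Ndufs8 and Ndufv2 rose in both batches. Ndufs1, with iron-sulphur clusters, was at 0.25 ± 0.08 in batch 1 (adjusted p = 0.064) and rose by 0.26 ± 0.05 in batch 2, Ndufv1 rose in batch 2, and Ndufs7, which carries the last cluster before ubiquinone, was at 0.03 ± 0.08 and -0.01 ± 0.06.

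Complex II, the succinate dehydrogenase that also belongs to the citric acid cycle, had the lowest median of the 5 complexes in both batches (0.23 and 0.19). In batch 1, 0 of 4 members passed, in batch 2, 2 were higher, and in the joint fit all 4 were. Sdhb, its iron-sulphur subunit, stood at 490, 472, 341, 490 and 424 CPM in batch 1 knockouts against 319 to 435 CPM (median 354) in controls, which overlapped. In batch 2 it stood at 646, 629, 613 and 584 CPM against 489 to 573 CPM (median 527), without overlap, a rise of 0.22 ± 0.06 (adjusted p = 0.0037). Sdha, the flavoprotein subunit, was at 0.13 ± 0.08 and 0.16 ± 0.06, neither of which passed (adjusted p = 0.427 and 0.062).

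Complex III, the cytochrome bc1 complex, had 7 of 9 members higher in batch 1 and 8 of 9 in batch 2. Uqcr11, a small accessory subunit, was at 284, 263, 226, 235 and 248 CPM in batch 1 knockouts and between 156 and 212 CPM (median 183) in controls. Its batch 2 knockouts stood at 292, 277, 311 and 286 CPM and the controls between 199 and 283 CPM (median 237), so the groups were apart in batch 1 and overlapped in batch 2. Uqcr11 rose by 0.44 ± 0.08 and 0.29 ± 0.07 (adjusted p = 0.0004 and 0.00082). Cyc1, the cytochrome c1 haem subunit, rose by 0.39 ± 0.09 and 0.26 ± 0.06, and Uqcrc2, a core protein, was at 0.25 ± 0.09 (adjusted p = 0.059) in batch 1 and rose by 0.19 ± 0.06 in batch 2.

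Complex IV, cytochrome c oxidase, held Cox5b, the member with the largest rise in batch 1 and in the joint fit. Of its tested members 9 of 15 were higher in batch 1 and 7 of 14 in batch 2. Cox5b, a zinc-binding subunit on the matrix side, stood between 347 and 471 CPM (median 388) in batch 1 controls and at 684, 475, 539, 604 and 548 CPM in knockouts. In batch 2 the controls ran from 440 to 497 CPM (median 473) and the knockouts stood at 638, 648, 616 and 612 CPM. No control reached a knockout in either batch, and Cox5b rose by 0.50 ± 0.09 and 0.41 ± 0.05 (adjusted p = 0.00027 and 2.1e-08). Cox5a, its partner on the matrix side, rose by 0.40 ± 0.08 and 0.40 ± 0.06. Cox7a1, the heart and muscle isoform of subunit VIIa, was at 459, 352, 330, 363 and 373 CPM in batch 1 knockouts against 225 to 336 CPM (median 259), and at 662, 584, 628 and 557 CPM against 431 to 547 CPM (median 463) in batch 2. It rose by 0.48 ± 0.10 and 0.38 ± 0.07, with 1 knockout library inside the control range in batch 1 and none in batch 2. Cox6a2, the heart and muscle isoform of subunit VIa, did not pass: 0.06 ± 0.08 and 0.12 ± 0.08 (adjusted p = 0.824 and 0.370).

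Complex V had 8 of 17 members higher in batch 1 and 11 of 17 in batch 2. Atp5o, the stalk protein OSCP that ties the catalytic head to the membrane sector, ran from 340 to 511 CPM (median 428) in batch 1 controls and stood at 656, 610, 524, 546 and 567 CPM in knockouts. In batch 2 controls ran from 506 to 601 CPM (median 554) and knockouts stood at 734, 774, 707 and 761 CPM. Neither batch had an overlap, and Atp5o rose by 0.46 ± 0.09 and 0.43 ± 0.05 (adjusted p = 0.00046 and 1.7e-08). Atp5g3, one of 3 genes for the proton-carrying c subunit, was at 1170, 1469, 1006, 1264 and 1110 CPM against 737 to 1134 CPM (median 821) in batch 1, and at 1857, 1824, 1947 and 1899 CPM against 1246 to 1595 CPM (median 1376) in batch 2. Overlap was limited to batch 1, and the rises were 0.44 ± 0.10 and 0.43 ± 0.06. Of the subunits of the catalytic head, Atp5a1 rose by 0.29 ± 0.08 and 0.29 ± 0.06, and Atp5b was at 0.25 ± 0.08 (adjusted p = 0.056) and rose by 0.23 ± 0.06.

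**Figure D2:**
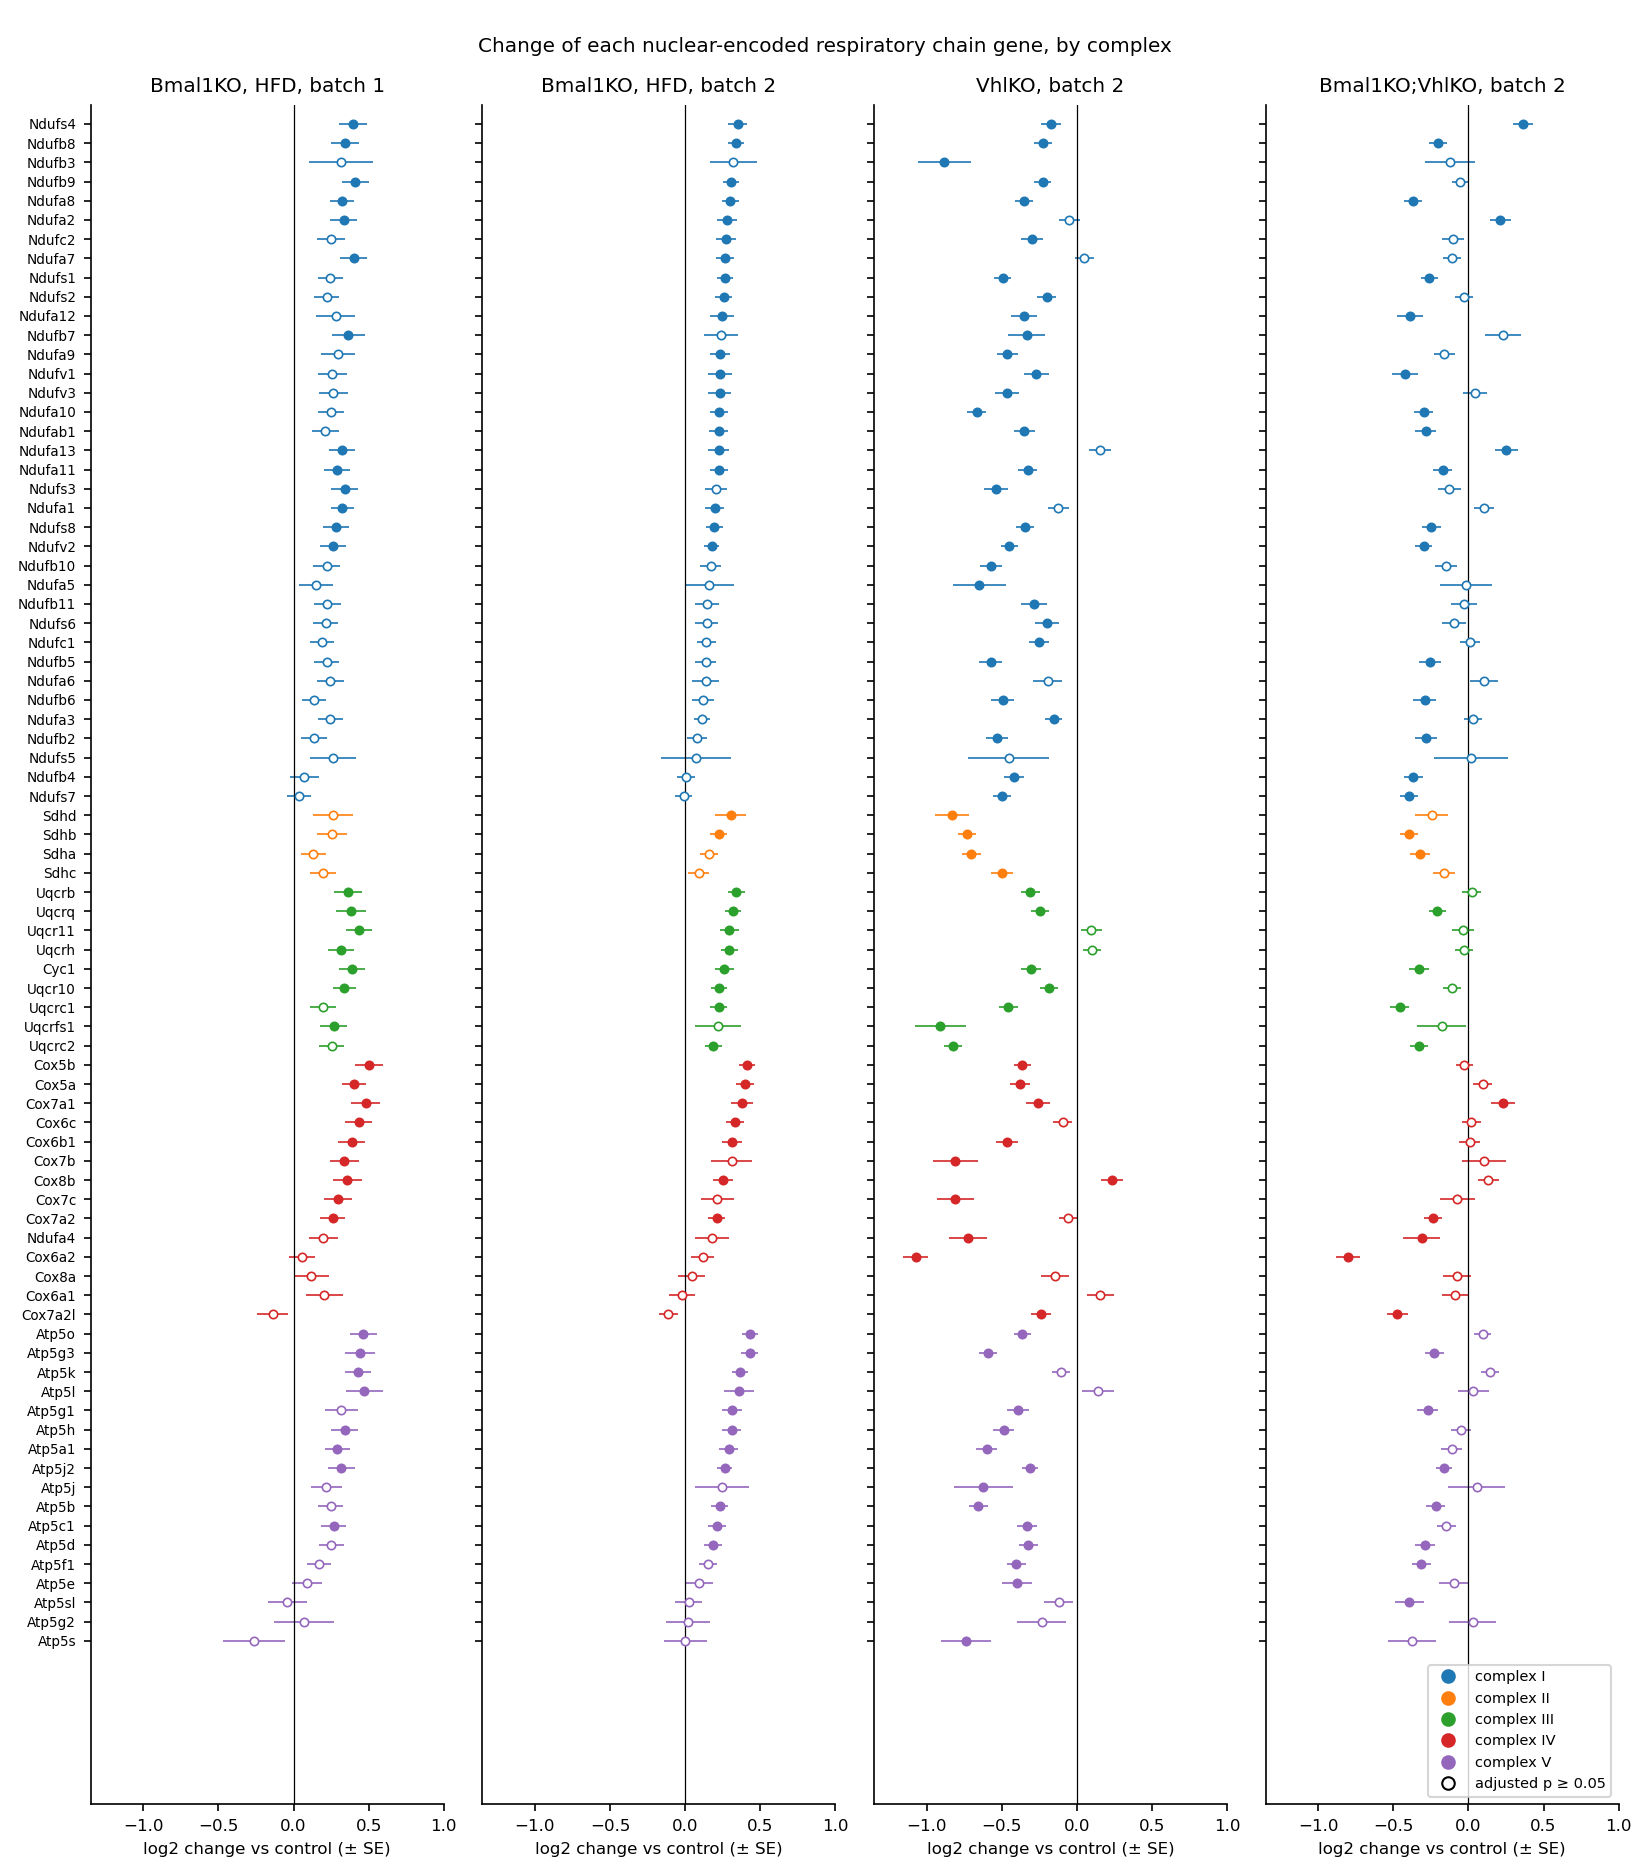
Fitted log2 change of each of 80 members tested in both batches (points, bars ± SE; x axis in log2), members in rows coloured by complex, with a panel for each comparison of a knockout with its own control; filled points passed at an adjusted p under 0.05. In the Bmal1KO panels the filled points all lie above 0, and in the VhlKO panel all but Cox8b lie below.

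The stretch of 250 bases before the annotated start was read from RefSeq (GRCm38.p6) for the 70 of 83 members whose symbols or synonyms matched, and was searched on both strands for CACGTG, the E-box that BMAL1:CLOCK binds. 7 of the 70 (10%) held it, against 6.05% of 27025 genes with such a stretch: Atp5f1, Atp5g1, Atp5g3, Atp5l, Atp5sl, Ndufa7 and Ndufv1. In batch 2, 5 of these 7 were higher in Bmal1KO, and so were 33 of the 61 tested members whose stretch lacked it; in batch 1 the numbers were 3 of 7 and 27 of 62. ACGTG, the core of the HIF site and part of every CACGTG, was in 16 (22.9%) against 16.6% of all. GCATGCGC, from the palindrome bound by NRF1, was in 8 (11.4%) against 2.32%, CCGGAAG, an ETS-type site such as GABPA binds, in 11 (15.7%) against 7.05%, and AAGGTCA, the site of oestrogen-related receptors, in 5 (7.14%) against 4.05%. AAGATGGC, the core of the YY1 site, was in 0 of 70 against 1.59%. These counts are of letters and say nothing of binding. Shown are the sequences of Atp5g3 and Ndufa7, which hold CACGTG and rose in both batches, of Cox5b, which rose most in the joint fit and lacks it, and of Cox8b, the member that rose in both Bmal1KO and VhlKO, all from 5′ to 3′ on the gene's strand and ending at the base before the start. Capitals mark CACGTG, 238 bases before the start in Atp5g3 and 72 in Ndufa7, and in Cox8b the ACGTG that reads CACGT on this strand, 111 bases before the start.
Atp5g3 (chr2:73911327-73911576, minus strand): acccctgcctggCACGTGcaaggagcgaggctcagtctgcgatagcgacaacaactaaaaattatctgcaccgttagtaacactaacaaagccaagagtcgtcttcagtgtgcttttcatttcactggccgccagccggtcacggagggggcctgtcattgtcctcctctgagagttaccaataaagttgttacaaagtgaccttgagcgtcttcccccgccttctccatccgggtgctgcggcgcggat
Ndufa7 (chr17:33824322-33824571, plus strand): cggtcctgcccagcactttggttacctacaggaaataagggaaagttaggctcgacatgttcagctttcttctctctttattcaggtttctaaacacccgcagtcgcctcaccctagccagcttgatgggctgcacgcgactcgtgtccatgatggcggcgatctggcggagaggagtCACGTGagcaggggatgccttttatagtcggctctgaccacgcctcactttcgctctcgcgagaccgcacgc
Cox5b (chr1:36691237-36691486, plus strand): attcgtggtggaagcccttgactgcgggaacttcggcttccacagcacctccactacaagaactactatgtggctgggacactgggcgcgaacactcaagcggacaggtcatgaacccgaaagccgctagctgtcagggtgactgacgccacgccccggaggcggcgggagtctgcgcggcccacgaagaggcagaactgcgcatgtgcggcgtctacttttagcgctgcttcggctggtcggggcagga
Cox8b (chr7:140900447-140900696, minus strand): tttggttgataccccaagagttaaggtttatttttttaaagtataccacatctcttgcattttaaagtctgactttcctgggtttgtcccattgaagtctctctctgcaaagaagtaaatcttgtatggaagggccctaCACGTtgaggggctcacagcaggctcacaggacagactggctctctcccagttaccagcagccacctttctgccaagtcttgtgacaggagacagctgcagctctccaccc

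On regular chow the Bmal1 knockouts (n = 3, against 4 controls) differed by about as much in the median as on high-fat diet, 0.25 (log2), with 6 of 81 members higher and 0 lower, against 1.55% and 2.29% of all genes. The 6 were Ndufa7, Cox5a, Cox5b, Cox7a1, Atp5a1 and Atp5b, and 5 of them had also passed in batch 1 on high-fat diet. Cox5b stood at 460, 538 and 589 CPM in chow knockouts and at 348, 317, 376 and 425 CPM in chow controls, a rise of 0.53 ± 0.12 (adjusted p = 0.0065). Cox7a1 stood at 334, 365 and 347 CPM against 217, 201, 255 and 280 CPM, a rise of 0.55 ± 0.13 (adjusted p = 0.0067). Neither gene's groups overlapped, as held for 38 of 81 members in the upward direction and 2 in the downward one (5.86% and 5.9% of all genes). The members summed to 21569 ± 2116 CPM in the chow controls and 25884 ± 1024 CPM in the knockouts. Lymphocyte transcripts (6 genes) summed to 33.4 CPM in chow control 2 and 44.7 CPM in chow knockout 1 and to 2.00 CPM at most in the other libraries; without those 2 libraries 3 members passed on chow. By library totals alone 37 passed, all higher, while the median of all genes was 0.07, with 319 of 12762 higher and 206 lower. Leaving out single libraries gave 3 without chow control 2, 10 without chow control 4 and 2 without chow knockout 3. Endothelial markers (6 genes) summed to 115 to 135 CPM in chow knockouts and 93.0 to 109 CPM in chow controls, and their part in the result was not tested.

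Few members differed with diet. High-fat diet against chow in the controls left 0 of 81 higher and 0 lower (1.51% and 0.854% of all genes), with a median of 0.08. At an unadjusted p under 0.05, 6 members differed with edgeR, and DESeq2 called 0. The libraries of the diets overlapped for all 81 members (1.76% of all genes lay wholly higher and 1.36% wholly lower). In the knockouts, 1 of 81 was higher and 0 lower (1.72% and 1.57% of all genes). Cox8a, the ubiquitous isoform of subunit VIII, stood at 29.8, 34.4, 26.0, 32.0 and 27.9 CPM on high-fat diet and at 19.3, 21.2 and 21.6 CPM on chow, without overlap, a rise of 0.54 ± 0.15 (adjusted p = 0.036). The call was lost without any 1 of high-fat knockouts 1, 2 and 4 or of the 3 chow knockouts, and the reverse count, 1 lower, came without the chow libraries that held lymphocyte transcripts. The knockouts of the diets were apart for 11 members upward and 0 downward (5.99% and 5.22% of all genes). The difference between diets in the Bmal1 effect passed for 0 members with edgeR and with DESeq2, for 0 members at an unadjusted p under 0.05, and for 0% of all genes in each direction.

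VHL loss went the other way. The members summed to 31366 ± 2024 CPM in the 6 Vhlfx/fx controls and to 23745 ± 1039 CPM in the 4 VhlKO animals, with no overlap (29259 to 35162 CPM against 22406 to 24581 CPM). Of 80 members, 63 were lower and 1 higher, against 19.5% of all genes lower and 17.7% higher, and the median member was at -0.35 where the median of all genes was 0.01. Every knockout library lay below every control for 48 members (12.3% of all genes) and above for 0 (10.1%). By complex, 30 of 36 members of complex I were lower, 4 of 4 of complex II, 7 of 9 of complex III, 9 of 14 of complex IV and 13 of 17 of complex V. The medians were -0.35, -0.72, -0.30, -0.31 and -0.39 in that order. These falls are relative to the other genes: scaled by library totals alone, the median of all genes was 0.353, the members' median was -0.01, and 13 members were higher and 16 lower, while 44.4% of all genes were higher and 5.22% lower.

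In complex IV, Cox6a2 fell furthest of all members. Its controls ran from 1831 to 2495 CPM (median 1969) and the VhlKO libraries stood at 954, 932, 816 and 1164 CPM, far below, a fall by 1.07 ± 0.08 (adjusted p = 2.5e-14). Ndufa4 fell by 0.72 ± 0.13, Cox5b by 0.36 ± 0.06 and Cox7a1 by 0.26 ± 0.08, the last at 0.088 when scaled by library totals. Cox5b stood at 411, 358, 378 and 420 CPM against 471 to 547 CPM (median 507), apart, while Cox7a1 stood at 341, 449, 346 and 373 CPM against 397 to 549 CPM (median 439), with VhlKO 2 inside the control range. Cox8b, the heart and muscle isoform of subunit VIII, was the 1 member that rose, by 0.24 ± 0.07 (adjusted p = 0.0074). Its VhlKO libraries stood at 875, 708, 868 and 822 CPM and its controls between 598 and 746 CPM (median 709), so that 3 of 4 lay above all controls.

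Complex II fell as a whole. Sdhb stood at 302, 321, 299 and 362 CPM in VhlKO and between 515 and 549 CPM (median 532) in controls, a fall by 0.73 ± 0.06 (adjusted p = 2e-13), with a wide gap between the groups. Sdha fell by 0.70 ± 0.06, and Sdhd, a membrane anchor, stood at 60.5, 77.6, 51.9 and 58.1 CPM against 101 to 124 CPM (median 109), a fall by 0.83 ± 0.11. In complex III, Uqcrc2 stood at 246, 235, 197 and 270 CPM against 403 to 433 CPM (median 418) and fell by 0.82 ± 0.06 (adjusted p = 3.4e-15), while Uqcr11 stood at 254, 243, 246 and 258 CPM inside and above the 202 to 247 CPM (median 240) of the controls, a difference of 0.10 ± 0.07 that did not pass. In complex I, Ndufa10, an accessory subunit of the membrane arm, stood at 229, 219, 218 and 275 CPM against 344 to 399 CPM (median 382), apart, and fell by 0.67 ± 0.07. Ndufs1 fell by 0.49 ± 0.06, Ndufs7 by 0.50 ± 0.06 and Ndufs4 by 0.17 ± 0.07. In complex V, Atp5g3 stood at 875, 882, 807 and 976 CPM against 1269 to 1422 CPM (median 1313), apart, and fell by 0.59 ± 0.06. Atp5b fell by 0.66 ± 0.06, Atp5a1 by 0.60 ± 0.07 and Atp5o by 0.36 ± 0.06.

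The size of a member's change without BMAL1 said little about the size of its change without VHL. Across the 80 members the effects of Bmal1KO and VhlKO in batch 2, which use separate controls, were at Spearman's rho 0.124 and Pearson's r 0.0625 (0.132 over all genes), given as a description. Of the 48 members higher in Bmal1KO of batch 2, 37 were lower in VhlKO. That is a like share to all 80 members, of which 63 were lower in VhlKO. The difference of the effects, VhlKO less Bmal1KO, was itself below 0 for 67 of 80 members and above for 0, against 13.1% and 12.2% of all genes, with a median of -0.57.

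**Figure D3:**
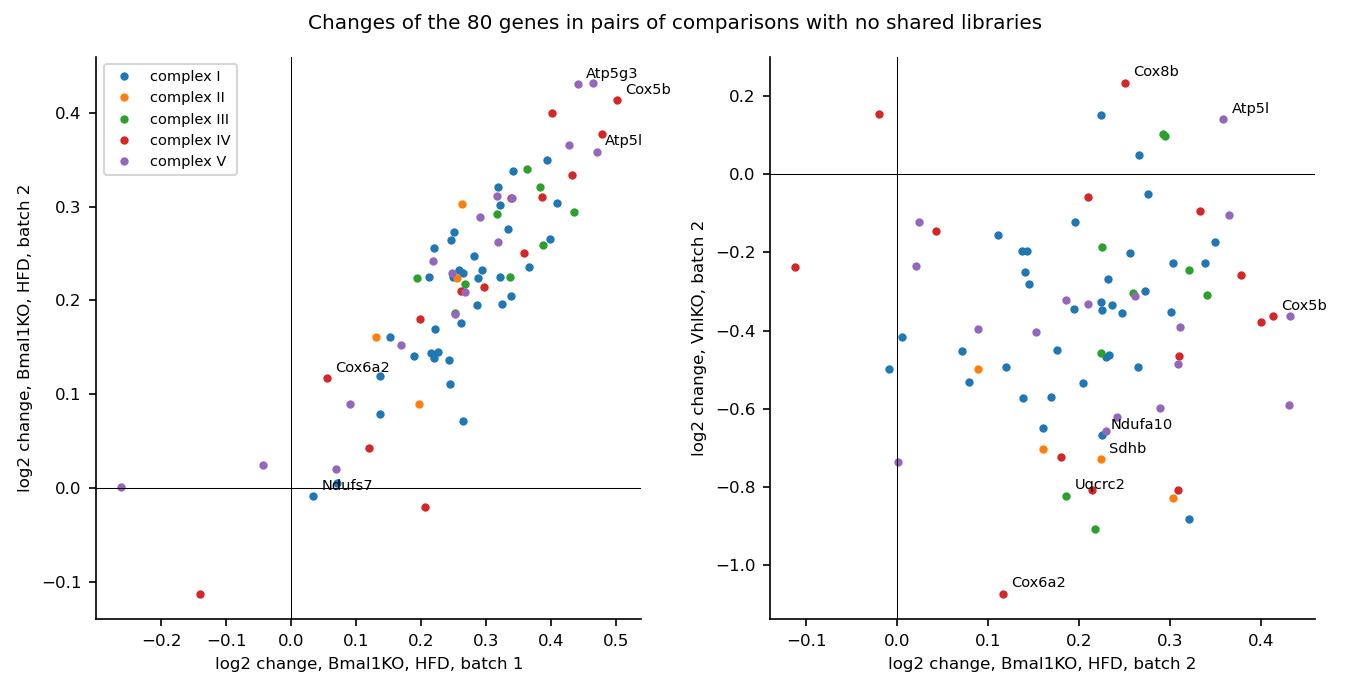
Log2 change of each of the 80 members (points, coloured by complex) in Bmal1KO of batch 1 (x axis) against Bmal1KO of batch 2 (y axis) on the left, and in Bmal1KO of batch 2 (x axis) against VhlKO (y axis) on the right. The left points rise along a diagonal; on the right Cox6a2 sits lowest, at -1.07 in VhlKO and 0.12 in Bmal1KO, and the complex II members lie low.

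Transcripts of other cells moved with the VhlKO groups. All 6 endothelial markers were higher, and their sum ran from 219 to 285 CPM in VhlKO against 110 to 128 CPM in controls; all 5 erythroid markers were higher, at 5824 to 7031 CPM against 877 to 1549 CPM; all 3 smooth muscle markers were higher, at 97.7 to 156 CPM against 63.5 to 90.4 CPM. Of 8 fast fibre markers 6 were lower, and their sum ran from 62024 to 78479 CPM against 92444 to 115661 CPM. Of 8 slow fibre markers 5 were higher and 1 lower, and their sum spread from 856 to 3986 CPM within VhlKO, high in libraries 1 and 4, against 2208 to 3626 CPM in controls. Without VhlKO libraries 1 and 4, 53 members were lower and 1 higher. The part of the other markers in the result was not tested. In Bmal1KO of batch 2 endothelial markers ran from 100.5 to 126 CPM against 102 to 115 CPM and erythroid markers from 459 to 903 CPM against 536 to 1196 CPM. In both Bmal1KO batches on high-fat diet, 0 of the endothelial, erythroid, smooth muscle and slow fibre markers passed with edgeR, and of the 8 fast fibre markers 1 was higher and 1 lower.

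Loss of both genes gave a smaller fall than loss of Vhl alone. The members summed to 31590 ± 952 CPM in the 6 Bmal1fx/fx;Vhlfx/fx controls and to 28776 ± 1269 CPM in the 4 double knockouts, with no overlap (30332 to 32772 CPM against 27093 to 30141 CPM). Of 80 members, 32 were lower and 4 higher, against 18.1% and 17.4% of all genes, and the median was -0.13 where that of all genes was 0.01. Complex I had 15 lower and 3 higher, complex II 2 lower, complex III 4 lower, complex IV 4 lower and 1 higher, and complex V 7 lower. All double knockout libraries lay below all controls for 26 members (12.8% of all genes) and above for 4 (11.2%). The balance hangs on scaling: by library totals alone the median of all genes was 0.367 and 41 members were higher and 1 lower, against 47.6% and 5.94% of all genes, and by totals of nuclear genes 22 were higher and 8 lower, against 33.4% and 9.21%.

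Cox6a2 again stood lowest, at 1411, 1149, 1157 and 1196 CPM against 2044 to 2253 CPM (median 2155), a fall by 0.80 ± 0.08 (adjusted p = 6.9e-11) with no overlap. Sdhb stood at 462, 382, 406 and 401 CPM against 492 to 577 CPM (median 555) and Uqcrc2 at 332, 304, 329 and 317 CPM against 384 to 421 CPM (median 403); both were apart, and they fell by 0.40 ± 0.06 and 0.33 ± 0.06, although Uqcrc2 stood at 0.026 when scaled by library totals. Uqcrc1, the other core protein, fell by 0.46 ± 0.06, beside a fall by 0.46 ± 0.06 in VhlKO. Cox7a2l, which joins complexes III and IV into supercomplexes, fell by 0.47 ± 0.07. The 4 members that rose were Ndufs4 (0.36 ± 0.07), Ndufa13 (0.25 ± 0.07), also known as GRIM-19, Ndufa2 (0.21 ± 0.07) and Cox7a1 (0.23 ± 0.08). Ndufs4 stood at 154, 154, 192 and 179 CPM, above the 115 to 148 CPM (median 132) of the controls. Cox5b and Atp5o, the members with the largest rises in the joint Bmal1KO fit, fell in VhlKO and were here at -0.03 ± 0.06 and 0.09 ± 0.06; Cox5b stood at 468, 418, 426 and 426 CPM against 432 to 462 CPM (median 443), the groups overlapping.

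The double effect was set against each single one. Less the Bmal1 effect it was below 0 for 52 of 80 members and above for 0 (9.04% and 7.69% of all genes; median -0.36). That count was 12 by library totals alone (median -0.086, where the median of all genes was 0.27) and 26 by totals of nuclear genes. Of all genes, 294 of 13093 were then below 0 and 2510 above by library totals. By totals of nuclear genes, 511 of 13052 were below 0 and 1718 above. Less the Vhl effect it was above 0 for 26 and below for 0 (4.51% and 4.06% of all genes; median 0.25), among them 4 of 4 of complex II, 9 of 36 of complex I, 2 of 9 of complex III, 6 of 14 of complex IV and 5 of 17 of complex V. Ndufs4 differed by 0.53 ± 0.10, Uqcrc2 by 0.49 ± 0.08, Cox7a1 by 0.49 ± 0.11, Atp5o by 0.46 ± 0.08 and Sdhd by 0.59 ± 0.16. Of the 63 members lower in VhlKO, 30 were lower in the double knockout, 31 did not pass and 2, Ndufs4 and Cox7a1, were higher. Against the sum of both single effects, the double effect differed by a median of 0.03; 4 members lay below the sum and 0 above (1.64% and 2.15% of all genes). They were Uqcr11 (-0.43 ± 0.12), Uqcrh (-0.42 ± 0.10), Ndufa7 (-0.42 ± 0.11) and Cox7a2 (-0.39 ± 0.10), all of which rose in both batches of Bmal1KO and did not pass in VhlKO. This count was unstable: 8 passed by library totals alone, 11 by totals of nuclear genes, 10 without VhlKO 2, and 1 member above the sum and 0 below without VhlKO 1 and 4, the libraries richest in slow fibre transcripts. Of all genes, 297 of 13093 lay below the sum and 134 above by library totals. By totals of nuclear genes, 395 of 13052 lay below it and 210 above. Endothelial markers (5 of 6 higher, 175 to 249 CPM against 112 to 123 CPM), erythroid markers (5 of 5 higher, 3148 to 5277 CPM against 867 to 1238 CPM) and fast fibre markers (7 of 8 lower, 78576 to 81118 CPM against 102608 to 113247 CPM) moved in the double knockout as in VhlKO, and slow fibre markers ran from 1517 to 2043 CPM against 2476 to 3388 CPM. Their part was not tested.

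**Figure D4:**
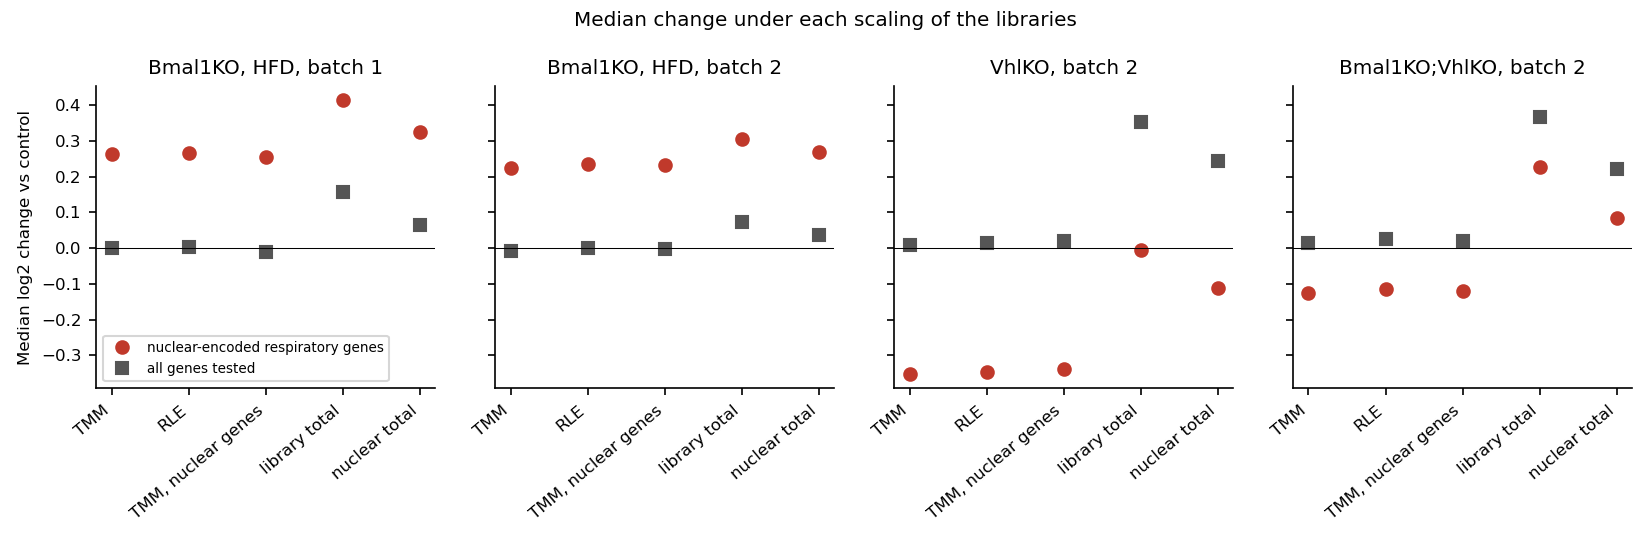
Median log2 change (y axis) of the members (circles) and of all genes tested (squares) under each of 5 scalings of the counts (x axis), with a panel for each knockout comparison. The members lie above all genes in Bmal1KO and below them in VhlKO and the double knockout under each scaling shown, while the position of both against 0 moves.

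The paired muscle and ubiquitous isoforms of complex IV did not move alike. QuantSeq gives 1 tag per transcript, so ratios of CPM need no length term, but only their change between groups is read here. The log2 ratio of Cox6a2 to Cox6a1, the ubiquitous form, was 5.79 ± 0.28 in Vhl controls and 4.55 ± 0.17 in VhlKO, and 5.94 ± 0.09 against 5.23 ± 0.08 in the double knockout line, with no overlap in either; in Bmal1KO it was 5.24 ± 0.15 against 5.40 ± 0.25 in batch 1 and 5.89 ± 0.12 against 5.75 ± 0.20 in batch 2, overlapping in both. Cox6a1 itself did not pass in any knockout (0.16 ± 0.09 in VhlKO). The log2 ratio of Cox7a1 to Cox7a2 was -0.0014 ± 0.079 in Bmal1KO against -0.22 ± 0.10 in controls of batch 1 on high-fat diet, 0.06 ± 0.12 against -0.34 ± 0.13 on chow, and 0.67 ± 0.07 against 0.20 ± 0.17 in the double knockout, with no overlap in these 3. It overlapped in Bmal1KO of batch 2 (0.52 ± 0.15 against 0.35 ± 0.04) and in VhlKO (0.14 ± 0.27 against 0.34 ± 0.14). The log2 ratio of Cox8b to Cox8a was 4.10 ± 0.11 in Bmal1KO against 3.89 ± 0.08 in controls of batch 2 and 5.20 ± 0.08 against 4.82 ± 0.28 on chow, with no overlap in either. It overlapped in Bmal1KO of batch 1 on high-fat diet (4.74 ± 0.28 against 4.52 ± 0.32), in VhlKO (4.54 ± 0.29 against 4.18 ± 0.34) and in the double knockout (3.99 ± 0.12 against 3.78 ± 0.22). Cox8b and Cox7a1 are also abundant in brown fat. Of its markers, Cidea ran from 5.47 to 13.2 CPM in the double knockout, against 2.10 to 3.15 CPM in its controls. It was at 6.09 CPM or less in every other group. Its mean was 3.14 CPM in VhlKO against 1.51 CPM in controls. In Bmal1KO its mean was 2.26 against 1.43 CPM in batch 1 on high-fat diet, 4.26 against 2.85 CPM in batch 2 and 1.48 against 0.94 CPM on chow. The ranges overlapped in each of these comparisons. Ucp1, the other marker, was at 0.073 CPM or less in the double knockout and at 0 CPM in its controls. Mean Ucp1 was 0 CPM in VhlKO and its controls, and in each Bmal1KO group it was below that of controls. The part of brown fat in these ratios was not tested.

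**Figure D5:**
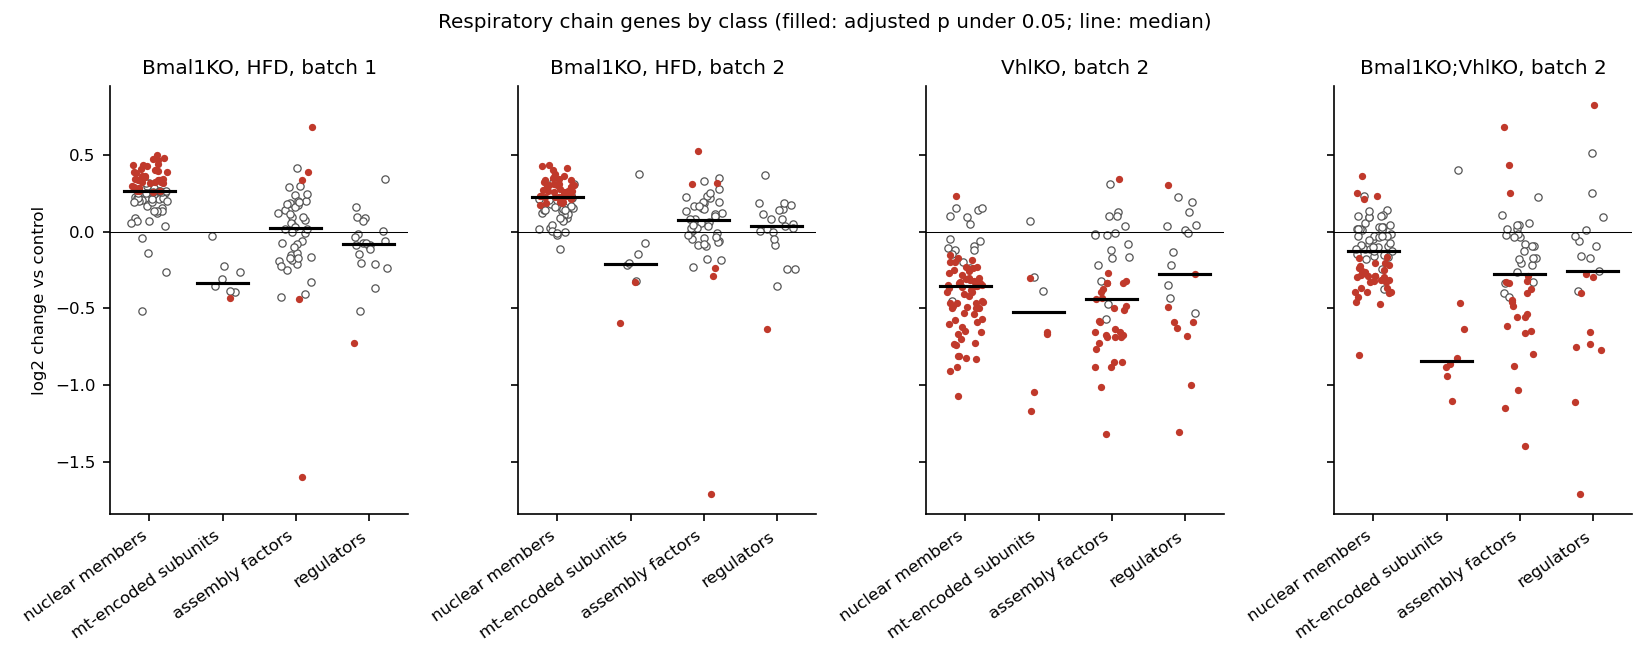
Log2 change (y axis) of single genes (points, filled where the adjusted p was under 0.05) among the nuclear members, the mitochondrially encoded subunits, the assembly factors and the regulators (x axis), with a line at each median and a panel for each knockout comparison. The median of the nuclear members lies above 0 and that of the mitochondrially encoded subunits below it in Bmal1KO, and both lie below 0 in VhlKO and the double knockout.

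Of 13 mitochondrially encoded subunits, 8 were tested. In Bmal1KO 0 were higher and 1 was lower in batch 1 (mt-Co1, the catalytic core of complex IV, -0.43 ± 0.10) and 2 were lower in batch 2 (mt-Nd1 and mt-Nd3, subunits of complex I, -0.33 ± 0.07 and -0.60 ± 0.17), with medians of -0.33 and -0.21. In VhlKO 5 were lower, with a median of -0.52, and in the double knockout 7, with a median of -0.84. In both, 0 were higher. Of all genes, 3.82% were higher and 5.18% lower in Bmal1KO of batch 1, and 6.94% and 6.96% in batch 2. In VhlKO 17.7% of all genes were higher and 19.5% lower, and in the double knockout 17.4% and 18.1%. As a share of all counts, all transcripts of the mitochondrial genome, not these subunits alone, held 31.3% ± 1.3 in controls and 29.5% ± 2.6 in Bmal1KO of batch 2. They held 37.1% ± 2.3 in Vhlfx/fx controls and 32.2% ± 3.5 in VhlKO, and 27.4% ± 2.7 in Bmal1fx/fx;Vhlfx/fx controls against 19.7% ± 3.1 in the double knockout. As a share of nuclear counts, the 83 members held 4.41% ± 0.19 and 5.41% ± 0.18 in the Bmal1 line of batch 2, 4.29% ± 0.26 in Vhlfx/fx controls against 3.83% ± 0.17 in VhlKO, and 4.29% ± 0.19 against 4.52% ± 0.23 for the double knockout. By this share the groups were apart in the Bmal1 line. They overlapped for VhlKO (3.61 to 3.98% against 3.92 to 4.68%) and for the double knockout (4.21 to 4.75% against 4.02 to 4.57%).

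Assembly factors, which build the complexes but are not part of them, gave 48 tested of 51 listed. In Bmal1KO 3 were higher and 2 lower in batch 1 and 3 higher and 3 lower in batch 2, in VhlKO 1 higher and 30 lower (median -0.44) and in the double knockout 3 higher and 20 lower (median -0.27). Of all genes, 3.82% were higher and 5.18% lower in batch 1 of Bmal1KO, and 6.94% and 6.96% in batch 2. In VhlKO these shares were 17.7% and 19.5%, and in the double knockout 17.4% and 18.1%. The counts of assembly factors in Bmal1KO lay near these shares. The largest change in Bmal1KO was that of Ndufaf5, a hydroxylase of the complex I subunit Ndufs7. It fell by 1.60 ± 0.14 and 1.71 ± 0.11 in the 2 high-fat batches, by 1.47 ± 0.18 on chow and by 1.39 ± 0.11 in the double knockout, and by 0.27 ± 0.10 in VhlKO. The difference between the double effect and the Vhl effect passed (-1.12 ± 0.15). Of 11 other respiratory genes, 3 were higher in batch 1 and 4 in batch 2 of Bmal1KO with 0 lower, 1 higher and 5 lower in VhlKO, and 2 higher and 1 lower in the double knockout. Among them Ndufa4l2, a HIF target that resembles Ndufa4, rose by 4.00 ± 0.18 in VhlKO and 3.96 ± 0.18 in the double knockout and did not pass in Bmal1KO. Cox4i1, the main form of subunit IV, and Atpif1, the inhibitor of the ATP synthase, rose in Bmal1KO by 0.31 ± 0.09 and 0.44 ± 0.10 in batch 1 and by 0.23 ± 0.06 and 0.34 ± 0.09 in batch 2. Of 24 listed regulators of mitochondrial biogenesis, 22 were tested in batch 1 and 21 in batch 2. In each batch of Bmal1KO 0 were higher and 1 was lower, near the shares of all genes. The lower one was Ppargc1a, the coactivator PGC-1α (-0.73 ± 0.19), in batch 1 and Nrip1, a corepressor (-0.63 ± 0.09), in batch 2. In VhlKO 1 was higher and 8 lower, among them Ppargc1a, Lrpprc, which steadies mitochondrial transcripts (-1.30 ± 0.21), and Tfam, the mitochondrial transcription factor (-0.59 ± 0.09); in the double knockout 1 was higher and 9 lower, among them Ppargc1a (-1.71 ± 0.33). With counts scaled by library totals alone, the mitochondrially encoded subunits kept medians below 0 (-0.18 in VhlKO, -0.49 in the double knockout), while the assembly factors stood at -0.09 (9 higher, 14 lower) and 0.07 (13 higher, 8 lower) and the regulators at 0.07 and 0.10. Of all genes, 44.4% were then higher and 5.22% lower in VhlKO, and 47.6% and 5.94% in the double knockout.

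The 3 control lines of batch 2 differed in few members. Vhlfx/fx against Bmal1fx/fx controls gave 2 of 80 higher and 0 lower (0.527% and 0.115% of all genes), Ndufb4 and Atp5g1, and Bmal1fx/fx;Vhlfx/fx against Bmal1fx/fx controls gave 0 and 0 with edgeR (0.55% and 0.512%), 5 at an unadjusted p under 0.05 and 2 with DESeq2. Bmal1fx/fx;Vhlfx/fx against Vhlfx/fx controls gave 1 higher, Cox7a2l, and 6 lower, Ndufv3, Ndufb4, Ndufa3, Ndufv2, Cox5b and Atp5g1 (2.96% and 3.86%). By library totals alone these counts were 21 lower for the Vhl line against the Bmal1 line. For the double line against the Vhl line they were 41 higher and 3 lower. Of all 13093 genes, 1188 were then lower and 57 higher in the former comparison, and 3092 higher and 183 lower in the latter. Each knockout was set against its own line. Of the 81 members with 1 entry in the annotation (GENCODE M21, GRCm38), the last 500 bases overlap exons of another gene on the other strand in 9, among them Cox6a2 and Uqcrc2, and on the same strand in 1, Cox7c. No source read states whether counting used the strand, so reads of such neighbours cannot be told apart, and reads shared with the annotated -ps copies of 5 members likewise.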

How the data were processed

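Per the labels' protocols, RNA of whole gastrocnemius (TRIzol, column kit) went into Lexogen QuantSeq forward libraries, 300 ng each. The submitters' processing notes name FastQC 0.11.4, STAR 2.6.0 and HTSeq for the deposited counts per gene symbol, with mm10 and GRCm38.p4 as genome builds. Normalized tables in the deposit were not used here. A count table listed 48321 symbols; 27 in batch 2 had become dates, none of them a member.

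Counts were tested in R 4.3.3 with edgeR 4.0.16 (filterByExpr, TMM, robust quasi-likelihood fits). Benjamini-Hochberg adjustment ran over all 12762 genes of batch 1, 13093 of batch 2 or 12565 of both. The fit of each batch took in every group of that batch, and the joint fit took in the high-fat groups of the Bmal1 line. A contrast of each batch's fit was also run on simulated data, and the joint fit was not. Values are log2 changes ± SE or CPM. Isoform ratios used a pseudocount of 0.5 CPM. Animals of a group are the replicates. Named members were the 4 of complexes I and V, 3 of IV and 2 of II and III with the smallest p in a comparison, the isoforms of complex IV with Ndufa4, and members called against the majority; up to 4 genes were named from each other list. The members and lists were chosen with earlier results of these data known. Alternatives were other scalings, filters and fits, DESeq2 1.42.0, the replicate number as a block, and leaving out each library.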

Additional observations from a re-analysis of the deposited data

Results flagged for a closer look

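Each of 198 sets of values for 1 measure in 1 group of 4 to 10 libraries was searched for a library that stood apart from the others by Dixon's test at the 95% level, which chance alone meets in about 1 of 20 sets; 7 did. Vhlfx/fx control 5 held the highest summed level of the members, 35162 CPM against 29259 to 31324 CPM in the other controls of its line, and the highest sum of complex V, 9644 CPM against 8129 to 8653 CPM. In control 3 of batch 1 on high-fat diet the members held 3.95% of nuclear counts, against 3.19 to 3.49% in the other controls. Bmal1KO 1 of batch 1 on high-fat diet stood high for Ndufs4, at 172 CPM against 130 to 139 CPM, and for Cox8b, at 1042 CPM against 720 to 794 CPM. Chow control 2 stood low for Ndufb9, at 362 CPM against 499 to 527 CPM. VhlKO 2 had a log2 ratio of Cox7a1 to Cox7a2 of 0.55 against -0.03 to 0.03 in the other VhlKO libraries.

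The double knockout effect differed from the sum of the single knockout effects by the test of that difference for Uqcr11 (-0.43), Ndufa7 (-0.42), Uqcrh (-0.42) and Cox7a2 (-0.39), all below the sum.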

How the results depend on the processing

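Of the counts of members called, 145 stayed within 1.5 times and on the same side under alternatives other than leaving out single libraries. Another 28 moved further and 6 reversed. With single libraries left out, 253 counts stayed, 19 moved further and 1 reversed. A count that was 0 both times was taken as staying. By library totals alone the count of members called was 67 for high-fat Bmal1KO of batch 1, 37 for Bmal1KO on chow, 1 for diet in controls, 0 for diet in knockouts, 29 for VhlKO, 42 for the double knockout (41 higher), 12 and 8 for the double effect less the Bmal1 effect and less the sum, and 21 and 44 for the Vhl line against the Bmal1 line and the double line against the Vhl line, both reversed. Then in VhlKO Cox7a1 stood at 0.088, Cox7a2 at 0.28 and Cox8a at 0.19. In the double knockout Sdha stood at 0.032, Uqcrc2 at 0.026, Cox7a2 at 0.12, Atp5f1 at 0.044, Atp5d at 0.068, Atp5g1 at 0.087, Ndufa4 at 0.048, Cox6a1 at 0.27 and Cox8a at 0.28, and between the double and Vhl lines' controls Ndufv2 stood at 0.0079 and Cox5b at 0.013. By totals of nuclear genes, added after seeing the data, the counts were 40 for VhlKO, 30 for the double knockout (22 higher), 26 for the double less the Bmal1 effect, 11 against the sum and 2 for double against Bmal1 line controls, with Cox7a2 at 0.18 and Cox8a at 0.088 in VhlKO and Cox6a1 at 0.12 and Cox8a at 0.13 in the double knockout. All genes moved with the scaling: by library totals their median was 0.157, 0.353 and 0.367 in Bmal1KO of batch 1, VhlKO and the double knockout.

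Without the filter on low counts, 12 members passed on chow, 3 for diet in knockouts and 1 for double against Bmal1 line controls; an average log2 CPM of at least 1 gave 1 for the last. With the groups of a contrast alone, 3 passed on chow, 3 for diet in knockouts and 1 for the last. DESeq2 gave 8 against the sum of effects and 2 for the last. Without the chow libraries that held lymphocyte transcripts, also added after seeing the data, 3 passed on chow and 1 for diet in knockouts, lower; without VhlKO 1 and 4, also added, 1 passed against the sum, higher. The cause of these changes was not tested.

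The labels do not say that an animal number pairs libraries, and in 52 pairs with a shared number the deviations from group means correlated at -0.29 to 0.17. Most Bmal1fx/fx controls of batch 2 bear a number that no other library of that batch has. A block for each number takes up such libraries whole, so they add nothing to the comparison. With the number as a replicate block, 17 members passed for Bmal1KO in batch 1, 3 on chow, 10 in batch 2, 34 over both batches, 24 for the double less the Bmal1 effect, 0 against the sum and 0 for Vhl against Bmal1 line controls, and Cox6a2 in batch 1 stood at -0.00548.

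Leaving out each library in turn gave 18 to 42 members for Bmal1KO in batch 1, 2 to 10 on chow, 0 to 1 for diet in knockouts, 41 to 50 in batch 2, 57 to 66 over both, 58 to 64 for VhlKO, 34 to 38 for the double knockout, 47 to 55, 21 to 36 and 65 to 71 for the double less Bmal1, double less Vhl and Vhl less Bmal1 effects, 3 to 10 against the sum, and 0 to 2, 0 to 1 and 6 to 13 for the Vhl against Bmal1, double against Bmal1 and double against Vhl lines' controls, the 13 without Vhlfx/fx control 5.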
